A study of Homo sapiens with 4 samples.

Results

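The calcineurin and NFAT genes of U87 cells, a human glioblastoma line, are described here in cells given YZ129, a small molecule that the series title places among inhibitors of an HSP90, calcineurin and NFAT pathway. The members were chosen by gene symbol: PPP3CA, PPP3CB, PPP3CC and PPP3R1, which encode calcineurin subunits, the calcineurin regulator RCAN1, and the factors NFATC1, NFATC2, NFATC3, NFATC4 and NFAT5. Of the 10, 9 had a row among the 19749 gene symbols of the results table and all 9 were tested; NFATC1 was not analysed here. Poly(A)-selected RNA came from 2 libraries of cells given the vehicle DMSO and 2 of cells given 5 µM YZ129 for 24 h, all from the same line grown in serum-containing medium. Whether the 2 libraries of a group were separate cultures is not said in the labels; p-values then measure only the spread between libraries, which may be technical.

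Calcineurin is a phosphatase switched on by calcium and calmodulin. It is built from a catalytic A subunit and a calcium-binding B subunit. It removes phosphates from the calcium-regulated NFAT proteins, which then enter the nucleus and work with partners such as AP-1, while kinases put the phosphates back and send them out again. This control acts on the proteins, and transcript levels do not report it. RCAN1 binds calcineurin and is itself a well-known NFAT target gene, so it forms a feedback loop. NFAT5 shares the DNA-binding domain of the family but lacks the calcineurin-binding region and responds to osmotic stress.

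Only the authors' own comparison was used. It holds no values for single libraries, so which libraries were high or low and whether the groups overlapped was not analysed here. For each gene the authors' deposited table gives a log2 fold change and its standard error (SE), an adjusted p-value, and a mean level, which is a read count scaled by library size; an adjusted p under 0.05 is the call used below. Which group was the numerator is not written in the table, whose name lists DMSO before the compound. A positive change was read as higher with YZ129, because 7 of 14 heat shock genes were called and all 7 were positive, among them HSPA6 (log2 change 2.64 ± 0.23 SE) and BAG3 (0.99 ± 0.14 SE) in the authors' deposited table, and such genes are known to be induced when HSP90 is inhibited. Among all tested genes 5.24% were called as higher and 7.64% as lower. The other 7 heat shock genes did not pass. Their log2 changes were 1.40 for HSPA1A, 0.39 for DNAJB1, 0.05 for HSP90AB1, 0.04 for HSPE1 and 0.02 for HSPD1. HSP90AA1 (-0.04) and HSPB1 (-0.21) were negative. Under the opposite reading every direction below turns around. The mean level was found to be taken over 8 libraries, 4 more than the samples in the labels. Which of the 8 carry the labels is not written. For 4 of the 8, genes whose only 2 reads lay in that library had a median change close to 0. Those 4 were taken to be the unlabelled ones for that reason alone. Such genes still had an estimated change, so those 4 libraries appear to have been fitted together with the labelled ones. How far they shaped the SEs and p-values cannot be read from the table.

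The label of the line was compared with fixed markers. Their mean levels also cover the 4 libraries without labels, whose cells are not known here. In the authors' deposited table VIM and CD44 were among the abundant transcripts, with mean levels of 298885 and 134994, whereas the astroglial markers GFAP (52.2), S100B (1.12) and SOX2 (0.85) were low or near 0. NES had a mean level of 909. VIM, NES and CD44 fell, GFAP did not pass and the other 2 were not tested. Markers of lymphocytes, the cells in which NFAT was first described, lay between 0.38 and 5.99 for the 5 of 6 with a row, below the level at which genes were tested.

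Of the 9 members 1 rose, 0 fell and 8 did not pass, in a table in which 12.9% of 14812 tested genes were called, 5.24% as higher and 7.64% as lower. The gene that rose was NFATC2. The share of members called was thus near the background of the table. The median log2 change of the members was 0.12, beside -0.05 for all tested genes, with 5 positive and 4 negative values. At an unadjusted p of 0.05, 3 further members would pass: NFATC4 and PPP3CA as lower and RCAN1 as higher.

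**Figure D1:**
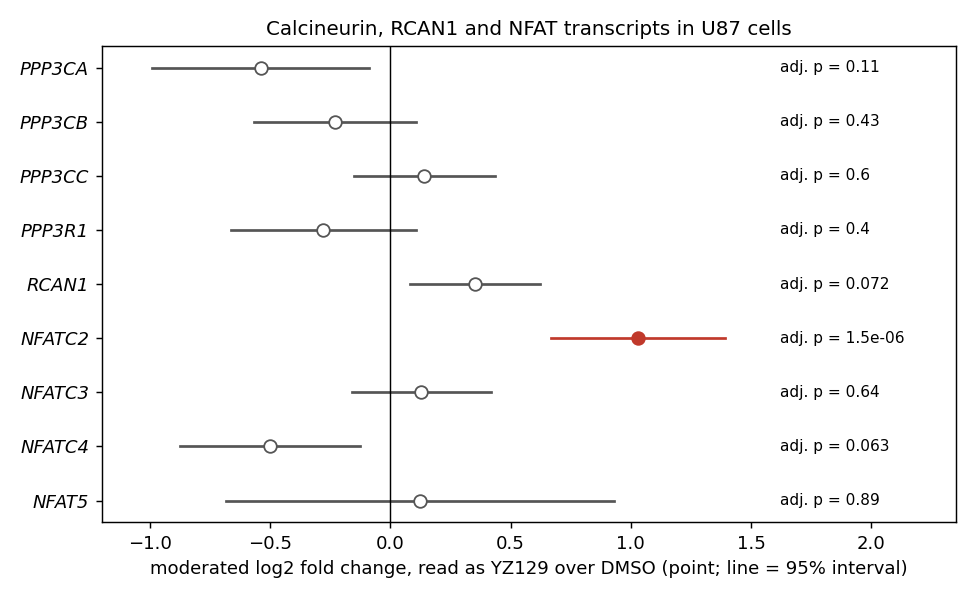
Moderated log2 fold change (x axis, read as YZ129 over DMSO) of the 9 members, with 95% normal intervals (lines); red and filled marks an adjusted p under 0.05. NFATC2 alone is filled, at 1.03 with an interval of 0.67 to 1.39, and the widest interval is that of NFAT5, from -0.68 to 0.93.

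The catalytic subunits of calcineurin did not pass. PPP3CA, the alpha isoform that predominates in brain, had a log2 change of -0.54 ± 0.23 SE (adjusted p = 0.108) in the authors' deposited table. PPP3CB, the beta isoform, had -0.23 ± 0.17 SE (adjusted p = 0.433), and PPP3CC, the gamma isoform best known from testis, had 0.14 ± 0.15 SE (adjusted p = 0.604), again in the authors' deposited table. A 95% normal interval around the moderated estimate bounds what these values leave room for. It reached 1.99-fold lower for PPP3CA, whose upper end lay at -0.09. For PPP3CB it ran from 1.48-fold lower to 1.08-fold higher, and for PPP3CC from 1.11-fold lower to 1.35-fold higher. The catalytic isoforms therefore had estimates of both signs, and their differences from each other were not tested.

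The regulatory subunit PPP3R1, the calcium-binding B subunit that every calcineurin outside the testis carries, had a log2 change of -0.28 ± 0.20 SE (adjusted p = 0.397) in the authors' deposited table. Its interval reached from 1.58-fold lower to 1.08-fold higher. Its testis counterpart PPP3R2 was hardly transcribed: the mean level of 0.50 resolved into 4 reads over all 8 libraries. PPP3R1 was thus the B subunit transcript seen, in a mean level that also covers the 4 libraries without labels.

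RCAN1 was the most highly read member and came close to a call without passing. Its log2 change was 0.35 ± 0.14 SE, or 1.28-fold higher, with p = 0.0108 and an adjusted p-value of 0.0719 in the authors' deposited table. The interval ran from 0.08 to 0.62 on the log2 scale, so that the upper end was 1.54-fold higher. Among the 500 tested genes nearest in mean level (8209 to 13280), 104 had a change at least as large in size. Those neighbours had a median change of -0.16, so the value of RCAN1 relative to genes of its own level was 0.51. This relative value was not tested.

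NFATC2 was the member that rose. This factor, also called NFAT1, is the calcium-regulated NFAT present in resting lymphocytes and has been tied to motility and invasion in tumour cells. In the authors' deposited table it had a log2 change of 1.03 ± 0.18 SE, or 2.04-fold higher, with p = 2.52e-08 and an adjusted p-value of 1.48e-06. The interval ran from 1.59-fold to 2.62-fold higher. Only 408 of the other tested genes had a larger positive change, which put NFATC2 at rank 409 of 14812. Among its 500 neighbours in mean level (294 to 380) 23 had a change at least as large in size, and 16.6% were called. Its SE was 0.93 times the median of these neighbours, so it was measured about as precisely as genes of like level. In bulk RNA, a rise in every cell and a larger share of cells carrying the transcript cannot be told apart.

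The other calcium-regulated NFAT genes with a row did not pass. NFATC3, also called NFAT4, had 0.13 ± 0.15 SE (adjusted p = 0.639) in the authors' deposited table, with an interval from 1.12-fold lower to 1.34-fold higher. NFATC4, also called NFAT3 and known from heart and neurons, had the opposite sign, at -0.50 ± 0.19 SE (p = 0.0090, adjusted p = 0.0631) in the authors' deposited table. Its interval ran from 1.83-fold lower to an upper end of -0.12 on the log2 scale. The lower end for NFATC2, 0.67, lay above the upper end for NFATC3, 0.42, and for NFATC4; the differences between genes were not tested, since the errors of genes from the same libraries are shared. NFATC2 and NFATC4 were the members with the fewest reads, with mean levels of 335 and 305.

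NFAT5 gave almost no information on its change. The authors' deposited table lists 0.12 ± 0.41 SE (adjusted p = 0.892) at a mean level of 3891. The interval ran from 1.61-fold lower to 1.90-fold higher. The smallest ratio of change to SE that was called among all tested genes was 2.73 in size. At the SE of NFAT5 that ratio corresponds to 2.18-fold, against 1.32-fold at the SE of NFATC3 and 1.42-fold at that of NFATC2. The SE was 2.69 times the median of its 500 neighbours in mean level, of which 12 had one as large. A change of NFAT5 as large as that of NFATC2 would have missed the threshold.

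Per length, RCAN1 was the most abundant member and the factors NFATC2 and NFATC4 the least. Dividing the mean level by the length of the longest GENCODE transcript gave 3707 normalized reads per kb for RCAN1 and 1833 for PPP3R1. The catalytic subunits followed with 828 for PPP3CB, 600 for PPP3CC and 499 for PPP3CA. NFATC3 had 339 and NFAT5 291 per kb, and NFATC4 and NFATC2 had 53.4 and 44.5. These are means over all 8 libraries, with no spread over samples, so whether neighbours in this order differ cannot be said. NFATC2, the only member that rose, was thus at the low end of this order together with NFATC4.

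The sequences ahead of the annotated starts of NFATC2 and RCAN1 are shown because these genes have the largest and the most precisely measured positive changes among the members, and because both have several starts that a count per gene symbol adds together. RefSeq (GRCh38.p14) gave promoters for 5 of the 9 members, 13 starts in all, of which 6 belong to RCAN1 and 2 to NFATC2. The core letters that NFAT proteins bind, GGAAA, were searched on both strands in the 250 bases before each start, where 55.6% of all 35116 RefSeq windows of that length hold at least 1 match. Capitals mark the matches, read as GGAAA or as its complement TTTCC. The stretches shown were cut where a GENCODE exon begins within the window, and all lie on the minus strand. Both NFATC2 stretches kept the full 250 bases. The first RCAN1 start kept 221 and the internal one 109, so these 2 end before their starts.
NFATC2 first start, chr20:51562840-51563089: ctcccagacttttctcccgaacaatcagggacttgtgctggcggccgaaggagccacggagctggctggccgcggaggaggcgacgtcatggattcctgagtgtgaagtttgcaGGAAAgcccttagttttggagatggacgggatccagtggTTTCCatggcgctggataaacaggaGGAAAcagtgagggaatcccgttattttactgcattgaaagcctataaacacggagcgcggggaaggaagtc
NFATC2 second start, chr20:51542720-51542969: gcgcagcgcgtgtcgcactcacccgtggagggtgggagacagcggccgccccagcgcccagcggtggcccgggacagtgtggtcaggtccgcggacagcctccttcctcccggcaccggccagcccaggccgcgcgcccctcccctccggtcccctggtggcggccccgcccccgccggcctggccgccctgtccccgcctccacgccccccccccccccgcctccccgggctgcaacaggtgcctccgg
RCAN1 first start, chr21:34615143-34615363: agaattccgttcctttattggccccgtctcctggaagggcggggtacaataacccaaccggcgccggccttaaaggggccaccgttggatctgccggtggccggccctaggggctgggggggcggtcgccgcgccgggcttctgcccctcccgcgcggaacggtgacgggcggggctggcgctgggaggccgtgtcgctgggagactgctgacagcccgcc
RCAN1 internal start, chr21:34526964-34527072: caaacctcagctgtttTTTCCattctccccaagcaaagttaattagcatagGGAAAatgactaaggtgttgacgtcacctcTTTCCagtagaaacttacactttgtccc

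The first NFATC2 start had 3 matches in its 250 bases, and 7.12% of all windows hold 3 or more; the second start, 20120 bases further on, had 0. The first RCAN1 start had 0, and an internal start 88291 bases downstream had 4, of which 3 lie in the stretch shown; 1.87% of all windows hold 4 or more. RCAN1 is known for an internal promoter with clustered NFAT sites that serves its calcium-induced isoform. The other 4 RCAN1 starts had 0 matches each. The heat shock letters GAANNTTC, which read the same on both strands, were found in 0 of the 13 member windows and in 5.78% of all windows. Which start the reads of RCAN1 or NFATC2 came from was not analysed here, and a match is a description of the letters only.

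The genes around the members were described by lists of known roles. Of 58 tested genes in 8 lists 2 rose and 8 fell, or 17.2% called, with a median log2 change of -0.09. Among all tested genes 12.9% were called, 5.24% as higher and 7.64% as lower. The lists are short, and their counts, also those without a call, were not tested against these shares.

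**Figure D2:**
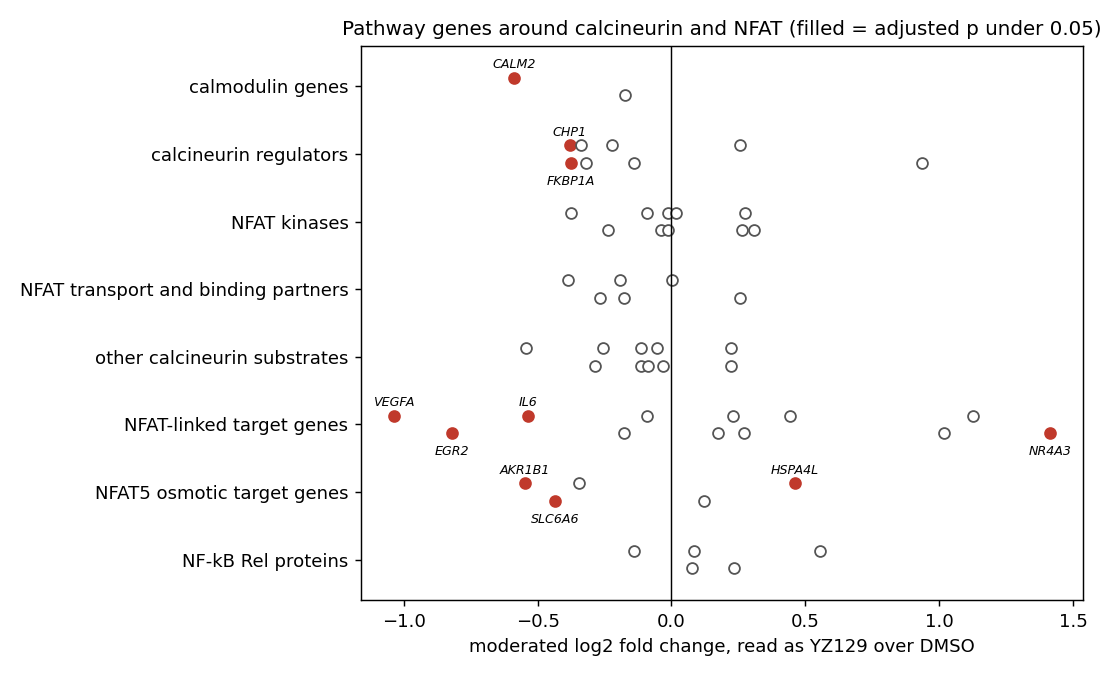
Moderated log2 fold change (x axis, read as YZ129 over DMSO) of the tested genes of the 8 pathway lists, one point per gene; red, filled and labelled points had an adjusted p under 0.05. The 10 labelled genes are 8 falls and 2 rises, NR4A3 and HSPA4L; the kinase, transport, substrate and Rel lists have none.

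Calmodulin, the calcium sensor that activates calcineurin, was described by 2 of its genes, CALM2 and CALM3. CALM2 fell by 0.59 (± 0.15 SE, adjusted p = 0.0020) on the log2 scale in the authors' deposited table, at a mean level of 21588. CALM3 had -0.17 ± 0.16 SE (adjusted p = 0.546) at a mean level of 7483 there and did not pass; the difference between them was not tested.

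Among regulators of calcineurin 2 of 8 tested genes fell and 0 rose. CHP1, a calcineurin B-like protein that can inhibit the phosphatase, had -0.38 ± 0.13 SE (adjusted p = 0.038) in the authors' deposited table. FKBP1A, the immunophilin through which the drug tacrolimus blocks calcineurin, had -0.37 ± 0.13 SE (adjusted p = 0.041) there. The cyclosporin receptor PPIA had -0.22 ± 0.16 SE at a mean level of 58246, and the inhibitor CABIN1 -0.14 ± 0.15 SE, in the authors' deposited table; neither passed. The RCAN1 relative RCAN3 had -0.34 ± 0.20 SE (adjusted p = 0.282) in the authors' deposited table. RCAN2, at a mean level of 2.90, was not tested. RCAN1 and RCAN3 thus had estimates of opposite sign, with the difference not tested.

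Kinases that rephosphorylate NFAT gave 0 calls among 10 by the authors' DESeq2-type test, with 1 at an unadjusted p of 0.05. Their changes ran from -0.37 to 0.31 with a median of -0.01. The casein kinases CSNK1A1 (0.02 ± 0.16 SE), CSNK1E (-0.24 ± 0.14 SE) and CSNK1D (0.27 ± 0.15 SE) were the most highly read of them in the authors' deposited table. The export kinase GSK3B had -0.01 ± 0.15 SE and the priming kinase DYRK1A -0.09 ± 0.14 SE in the authors' deposited table. For GSK3B the interval reached from -0.31 to 0.29.

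Transport factors and binding partners likewise gave 0 calls among 6 by the authors' DESeq2-type test, with 1 at an unadjusted p of 0.05. The importin KPNB1 (-0.27 ± 0.13 SE), the exportin XPO1 (-0.19 ± 0.18 SE) and HOMER3, which competes with calcineurin for NFAT (-0.18 ± 0.15 SE), had the highest mean levels in the authors' deposited table. NRON, the non-coding RNA repressor of NFAT, had 2 reads over all 8 libraries. Calcineurin substrates other than NFAT gave 0 calls among 10 by the authors' DESeq2-type test and 0 at an unadjusted p of 0.05. The mitochondrial fission factor DNM1L (-0.29 ± 0.15 SE), the factor ELK1 (-0.11 ± 0.15 SE) and the muscle and neuronal factor MEF2A (-0.03 ± 0.20 SE) were the most highly read of these in the authors' deposited table.

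Genes known as NFAT targets went both ways. Of 12 tested genes 1 rose, 3 fell and 8 did not pass, with a median of 0.20. The angiogenic factor VEGFA was 2.05-fold lower (-1.04 ± 0.13 SE), the zinc finger factor EGR2 1.76-fold lower (-0.82 ± 0.15 SE) and the cytokine IL6 1.45-fold lower (-0.53 ± 0.13 SE) in the authors' deposited table. The nuclear receptor NR4A3 was 2.67-fold higher (1.41 ± 0.28 SE). At an unadjusted p of 0.05 the list had 4 higher and 3 lower genes. The 3 that this adds were the zinc finger factor EGR3, at 1.02 ± 0.38 SE (adjusted p = 0.059), the chemokine gene IL8, now CXCL8, at 0.44 ± 0.17 SE (adjusted p = 0.062), and the cytokine TNF, at 1.13 ± 0.48 SE (adjusted p = 0.103), in the authors' deposited table. EGR3 and TNF had few reads, with mean levels of 38.9 and 21.8. The prostaglandin synthase PTGS2 had 0.23 ± 0.21 SE and the protease CTSK 0.27 ± 0.14 SE there. VEGFA and IL6 also answer to other pathways, hypoxia and NF-kB among them, and their part in these values was not tested.

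Among genes known to be induced by NFAT5 under osmotic stress 2 of 5 tested fell and 1 rose. Aldose reductase AKR1B1 had -0.55 ± 0.15 SE (adjusted p = 0.0041) and the taurine transporter SLC6A6 -0.44 ± 0.15 SE (adjusted p = 0.032) in the authors' deposited table. HSPA4L, a heat shock protein of the HSP110 type, had 0.46 ± 0.16 SE (adjusted p = 0.041). Other heat shock genes such as HSPA6 and BAG3 also rose, and whether the rise of HSPA4L belongs with theirs was not tested. The inositol transporter SLC5A3 had -0.34 ± 0.41 SE in the authors' deposited table, an SE like that of NFAT5 itself.

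Members of like level were not measured with like precision. At mean levels from 305 to 10439 the SE of 5 members was 0.92 to 0.95 times the median of their neighbours in level: PPP3CC, NFATC2, NFATC3, NFATC4 and RCAN1. It was 1.13 times that median for PPP3CB, 1.30 for PPP3R1, 1.49 for PPP3CA and 2.69 for NFAT5. Of the 500 neighbours of PPP3CA 26 had an SE as large, so its change of -0.54 was measured with less precision than most genes of its level. The smallest called ratio of change to SE corresponds to a log2 change of 0.63 for PPP3CA and of 0.40 for NFATC3, which has a similar mean level (2144 against 2336).

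**Figure D3:**
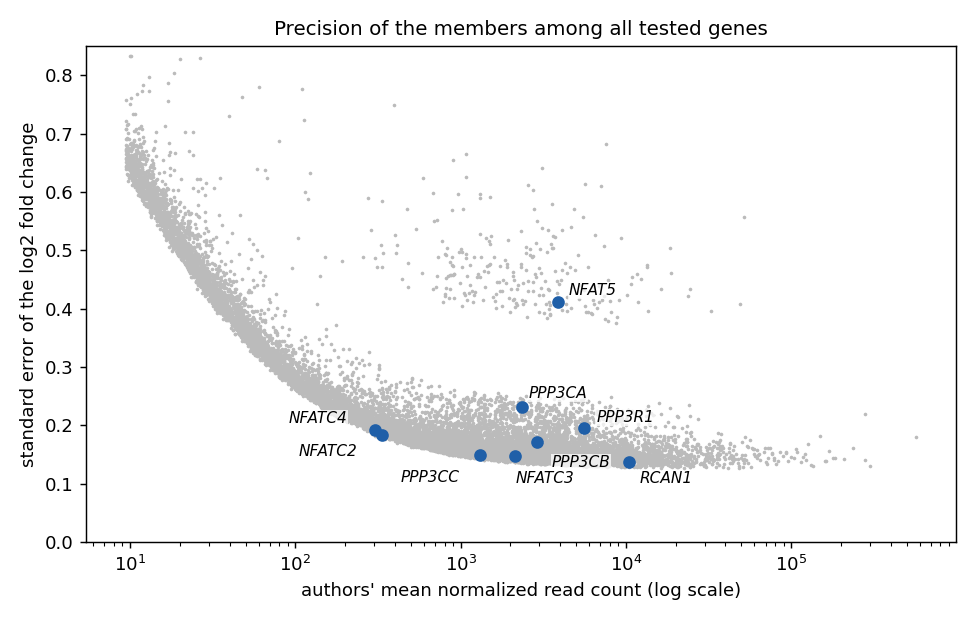
SE of the log2 fold change (y axis) against the authors' mean normalized read count (x axis, log scale) for all 14812 tested genes (grey) and the 9 members (blue). NFAT5, with an SE of 0.41 at a mean level of 3891, lies in a separate cloud above the main band, and PPP3CA (0.23) and PPP3R1 (0.20) lie in its upper part.

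The imprecisely measured members were those with the least GC in their transcripts. The longest GENCODE transcript had a GC content of 39.3% for NFAT5, 40.7% for PPP3R1, 41.0% for PPP3CB and 42.6% for PPP3CA, and between 45.0% and 58.6% for the other 5. NFAT5 also has the longest transcript, at 13362 bases. Over 7030 tested genes that had a known transcript and reached a mean level of 1000, the SE relative to neighbours had a Spearman correlation of -0.303 with GC content and 0.0234 with length. This is a description across genes, which share libraries and are not independent. Of these genes 185 (2.63%) had an SE more than 2 times the median of their neighbours, none lay between 1.65 and 2.43 times, and 177 of the 185 had a GC content under 42%, against 27% of all 7030. The level of 42% was chosen after the values were seen. The part of GC content in the missing calls of PPP3CA and NFAT5 was not tested.

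**Figure D4:**
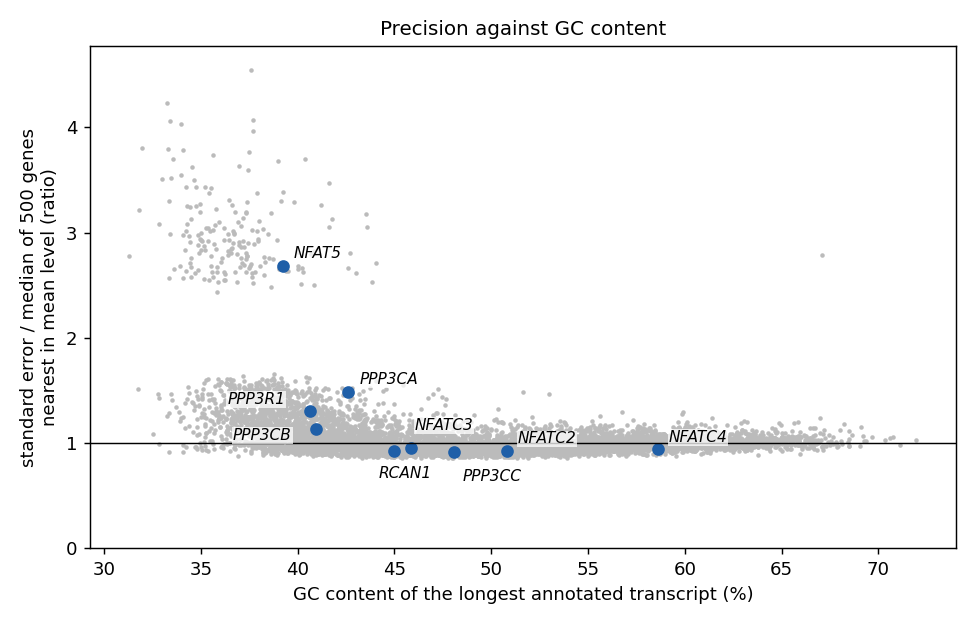
SE of the log2 fold change divided by the median of the 500 tested genes nearest in mean level (y axis, ratio) against the GC content of the longest annotated transcript (x axis, %), for 7030 genes at or above a mean level of 1000 (grey) and the 9 members (blue). NFAT5, PPP3R1, PPP3CB and PPP3CA, at 39.3% to 42.6% GC, lie above a ratio of 1, and the other 5 members lie just under it.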

How the data were processed

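RNA of 2 DMSO and 2 YZ129 libraries had been reduced by the authors to 1 results table, whose mean level also covers 4 libraries without labels. Its columns carry the names of the authors' DESeq2 output, per the file headers, whose version is unknown here, as are the read counter and the annotation. The submitters' processing notes name the build hg19 and the tools Cuffdiff, Cufflinks 2.2.1 and TopHat2 2.0.12, without their roles. The deposited mean level is a normalized signal, the deposited change is on the log2 scale, and the deposited score equals the change over its standard error. From that score the deposited p-value follows by a two-sided normal test, and the adjusted p-value by a Benjamini-Hochberg adjustment over 14812 genes; the other 4937, with mean levels up to 9.43, had none and were not tested. The deposited changes were moderated: where 2 reads of the same library were a gene's only reads, the median change was at most 0.55 in size. Folds therefore understate changes of genes with few reads. How far genes with a wide SE at a higher mean level, such as NFAT5, were also moderated was not analysed here.

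The 8 libraries behind the mean level were found from the fixed value of 1 read in each; with a tolerance of 1e-07 whole reads (2 to 5) accounted for all 1372 genes in that range. The depth of the libraries in reads is unknown here. Intervals, neighbours in mean level (500 tested genes) and alternatives were computed with Python 3.11.15, numpy 2.4.6, pandas 2.3.3 and scipy 1.17.1. The adjustment and the search for libraries were tested on simulated data. Transcript lengths and GC content came from GENCODE 29 and promoters from RefSeq, both on GRCh38 and not the authors' build, so no gene coordinates are compared with the table. The members and lists were chosen with earlier results of these data known, and 2 listed genes are not reported here and enter no list count. All members were named; from each list every called gene was named, and of the rest 1 to 3 with the highest mean level. Genes that do not follow this rule, such as PPP3R2, RCAN2, NRON, EGR3, TNF, GSK3B and DYRK1A, were chosen after their values were seen. No gene could be named for a pattern like that of a member, since that needs values per library.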

Additional observations from a re-analysis of the deposited data

How the results depend on the processing

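NFATC2 was the 1 member called with the adjusted p under 0.01, with adjustment over all genes with a p-value or over genes at or above a mean level of 100, and for log2 changes of 0.5 or 1 and more. At an unadjusted p of 0.05 the count was 4. The 10 called pathway genes became 6 at an adjusted p under 0.01, 16 at an unadjusted p of 0.05 (which turns the NFAT-linked targets from 1 higher and 3 lower to 4 and 3), 6 for log2 changes of 0.5 and more, and 2 (NR4A3 and VEGFA) for those of 1 and more. Adjusted over all genes with a p-value the count was 7, and CHP1 (adjusted p = 0.051), FKBP1A (0.054) and HSPA4L (0.054) no longer passed. Centring on all tested genes or on neighbours in mean level moved the median of the members from 0.12 to 0.17 and 0.21 and turned no member's sign. RCAN1 moved to 0.51 with the latter. Centring on neighbours made each called fall of the lists smaller in size, as for CALM2 (-0.59 to -0.42), CHP1 (-0.38 to -0.25) and VEGFA (-1.04 to -0.87). The 2 rises were then 1.40 for NR4A3 and 0.54 for HSPA4L. The SE ratio of NFAT5 was 2.69 with 500 or 200 neighbours. No paired analysis was possible because the table holds no values per library, and leaving out libraries was not run for the same reason. The reading of the direction decides every rise and fall.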

Other observations

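The NF-kB Rel proteins, whose DNA-binding domain is related to that of the NFAT factors, gave 0 calls among 5 tested genes by the authors' DESeq2-type test, with 1 at an unadjusted p of 0.05. Among all tested genes 12.9% were called, so 0 of 5 says little about this list. The median log2 change of the Rel genes was 0.09. In the authors' deposited table REL, the factor best known from lymphocytes, had the largest estimate, at 0.55 ± 0.28 SE (adjusted p = 0.191), named after its value was seen. RELA, the most highly read of them, had -0.14 ± 0.15 SE, NFKB2 0.09 ± 0.14 SE and NFKB1 0.23 ± 0.14 SE in the authors' deposited table.

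Among the more highly read genes, AT-rich transcripts had a wider SE and a smaller share of calls. Whether their changes were also smaller was not analysed here. Among tested genes at or above a mean level of 1000, 8.07% of the 1897 with a GC content under 42% were called, against 16.2% of the 5133 others. Of the 185 genes with an SE more than 2 times that of their neighbours, NFAT5 among them, 0 were called by the authors' DESeq2-type test, with 4 at an unadjusted p of 0.05. A call divides the change by the SE, so few calls follow from how these genes were picked. The count is a description only.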
